A study of Mus musculus with 20 samples.

Results

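The genes described here were 43 genes of DNA replication and cell division, out of 24419 genes in the counts table. They were taken by symbol from a list chosen with earlier results of these data known, which limits the tests of all of them. Of these genes 3, Hmgb2, Nusap1 and Fam111a, had been picked because their counts were higher with zinc. The differences of those 3 genes in comparisons that hold zinc libraries are therefore given as a description, without a test, and the other 40 genes carry the tests there. Comparisons without zinc share their TPA, glutamate or control libraries with the zinc comparisons, so no p-value is printed for the 3 genes in those either. Counts of genes past the threshold leave the 3 genes out as well. All 43 passed the low-count filter, which left 14411 genes tested.

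The RNA came from dissociated mouse hippocampal cultures of the strain C57BL6, started at embryonic day 18 from tissue pooled over 4 embryos and sampled at day 10 in vitro. All cultures, the controls included, had received 4 µM cytosine arabinoside from day 3 to day 6. In the zinc group, neurons were stimulated for 2 min with 50 µM glutamate and 10 µM ZnCl2. The TPA group got 50 µM glutamate with 10 µM tris(2-pyridylmethyl)amine, a zinc chelator, after 1 min in the chelator alone. The glutamate group got 50 µM glutamate, and the control group got the imaging medium. Lysis followed 90 min after stimulation at 37 °C. There were 5 libraries in each of the 4 groups, and zinc or TPA without glutamate was not analysed here. The labels call the libraries biological replicates, but no separate litters are named for them, so p-values measure the spread between these libraries, which may be technical in part.

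Cells divide by copying their DNA and then separating the copies on a spindle of microtubules. Cyclins and their kinases time both steps, the MCM helicase and PCNA carry out replication, and kinesins, kinetochore proteins and Aurora and Polo kinases run mitosis. Neurons no longer divide, and cytosine arabinoside, a nucleoside analogue that stops DNA synthesis, is added to neuronal cultures to kill the glia and progenitors that still do. Several of the genes also work outside division, among them the abundant chromatin proteins, Pcna in DNA repair and the D-type cyclins.

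Library totals ran from 28692470 to 40934630 counts, and the 43 genes held 0.0504 to 0.0601% of them. TPA replicates 2 and 4 had the lowest totals, at 28692470 and 29623687 counts, followed by zinc replicate 5 at 33445137. A count of 3 equalled 0.0738 to 0.105 CPM (a count divided by its library's scaled size), which covers counting error only. Glutamate replicates 4 and 5 and zinc replicate 5 lay farthest from their group means over all tested genes. Neuronal markers were the most abundant, with a summed level of 5909 to 6697 TPM over 10 genes (counts per gene length, scaled to a fixed library sum) and Tubb3 at a mean of 2379 TPM. Markers of radial glia and progenitors summed to 522 to 660 TPM, led by Fabp7 at a mean of 263 TPM. Those of astrocytes summed to 228 to 286 TPM, led by Slc1a2. Neuroblast and intermediate progenitor markers summed to 270 to 415 TPM, led by Dcx at a mean of 260 TPM. A sum that rests largely on 1 gene does not measure how many cells of a type were present. Oligodendrocyte precursor, microglia and vascular lists summed to 6.57 to 15.5, 3.23 to 6.74 and 15.8 to 20.4 TPM.

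Most of the cell cycle genes were scarce. Their median level was 2.01 TPM, against 22.1 TPM over all tested genes, and 10 of the 43 averaged under 1 TPM. At the other end, 10 genes averaged at least 10 TPM. The chromatin proteins were the most abundant of the set. H2afz, which encodes a variant of histone H2A, averaged 190.4 TPM, Hmgn2, a nucleosome-binding protein, 111 TPM, and Hmgb1, a DNA-bending protein, 68.5 TPM. Pcna, the sliding clamp of DNA polymerase, averaged 93.1 TPM and Ccnd2, a D-type cyclin, 83.9 TPM. Hmgb2, the close relative of Hmgb1, averaged 3.49 TPM. The condensin subunit Smc4, which compacts chromosomes, averaged 11.4 TPM. Among spindle, kinetochore and midzone genes Tacc3, a stabiliser of spindle microtubules, was the highest at 7.21 TPM, and among mitotic kinase genes Aurka, the Aurora kinase of spindle poles, at 3.16 TPM. Mki67, the usual marker of dividing cells, averaged 0.457 TPM and Cdk1, the kinase that starts mitosis, 0.296 TPM, the lowest of the 43. Because the RNA comes from whole cultures, fewer cells of a dividing type and less RNA per cell cannot be told apart.

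**Figure D1:**
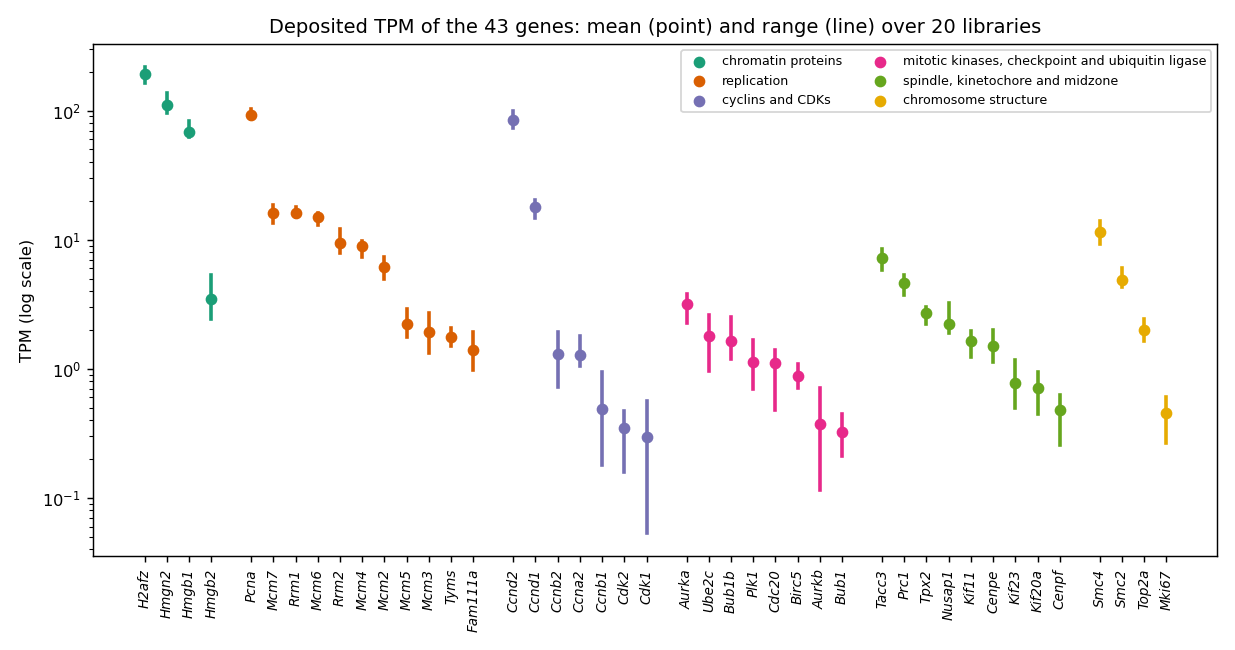
Deposited TPM on a log axis for each of the 43 genes, grouped by role, with the mean over 20 libraries as a point and the range as a line. Levels run from 190.4 TPM for H2afz to 0.296 TPM for Cdk1, and the ranges of Cdk1, Aurkb and Ccnb1 are wide.

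Scatter between libraries was small in abundant genes and wide in the scarcest. Pcna, with 1011 to 1611 counts a library, varied by 4.42% over the 20 libraries (SD over mean of CPM), and Mcm6, a helicase subunit with 412 to 588 counts, by 4.58%. Cdk1 had 2 to 21 counts and varied by 43.4%, Aurkb, the Aurora kinase of the chromosomal passenger complex, had 3 to 16 counts and varied by 42.0%, and Ccnb1, a mitotic cyclin, had 5 to 27 counts and varied by 41.9%. These percentages span the 4 groups, so they hold differences between groups as well as scatter within them. Hmgb2 had 76 to 184 counts and varied by 27.4%. Within groups it had 2.45 ± 0.141 CPM in control, 2.52 ± 0.297 with TPA, 3.22 ± 0.688 with glutamate and 4.30 ± 0.353 with zinc (SD). Nusap1 and Fam111a had 52 to 106 and 36 to 78 counts and varied by 16.8% and 17.2%. In all, 23 of the 43 genes averaged under 100 counts a library.

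The sequences before the start sites of the 3 picked genes and of Top2a, a topoisomerase of dividing cells, are shown because promoters of genes expressed in mitosis commonly carry CCAAT boxes and a cell cycle genes homology region (CHR). Each is the 250 bases before the start site in RefSeq on GRCm38.p6, 5′ to 3′ on the gene's strand, and capitals mark CCAAT or TTTGAA on either strand. They lie at chr8:57511593-57511842 (plus strand) for Hmgb2, chr2:119618048-119618297 (plus) for Nusap1, chr19:12573275-12573524 (plus) for Fam111a and chr11:99024190-99024439 (minus) for Top2a.
Hmgb2: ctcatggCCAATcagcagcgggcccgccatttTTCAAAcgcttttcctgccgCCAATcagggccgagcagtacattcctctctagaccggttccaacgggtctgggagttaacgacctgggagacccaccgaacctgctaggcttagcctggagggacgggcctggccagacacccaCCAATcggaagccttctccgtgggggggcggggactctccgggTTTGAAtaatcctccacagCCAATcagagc
Nusap1: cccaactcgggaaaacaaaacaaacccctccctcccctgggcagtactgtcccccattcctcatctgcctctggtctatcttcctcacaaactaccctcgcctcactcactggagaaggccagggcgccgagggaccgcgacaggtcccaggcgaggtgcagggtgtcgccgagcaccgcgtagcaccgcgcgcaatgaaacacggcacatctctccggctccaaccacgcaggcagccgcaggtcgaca
Fam111a: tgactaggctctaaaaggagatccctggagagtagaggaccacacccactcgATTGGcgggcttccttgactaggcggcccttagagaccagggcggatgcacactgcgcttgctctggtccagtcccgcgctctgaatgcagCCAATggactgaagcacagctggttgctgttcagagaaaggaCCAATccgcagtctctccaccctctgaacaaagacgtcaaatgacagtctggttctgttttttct
Top2a: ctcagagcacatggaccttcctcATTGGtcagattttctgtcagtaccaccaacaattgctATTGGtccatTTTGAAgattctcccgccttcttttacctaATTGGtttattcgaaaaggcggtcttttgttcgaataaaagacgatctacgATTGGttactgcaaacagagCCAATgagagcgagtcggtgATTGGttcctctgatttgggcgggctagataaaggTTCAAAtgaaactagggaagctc
The Hmgb2 sequence holds 4 CCAAT and 2 TTTGAA matches, and Top2a holds 6 and 2. Fam111a has 3 CCAAT and 0 TTTGAA matches, and these letters are not in the Nusap1 window.

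RefSeq promoters, from 250 bases before to 50 after the start, were matched by symbol for 34 of the 43 genes. CCAAT stood in 30 of the 34 (88.2%), against 41.1% of 27025 genes with a promoter. TTTGAA was found in 16 (47.1%), against 20.2% of genes, and TTTNNCGC, a form of the E2F site, in 7 (20.6%), against 5.93%. Both strands were searched and none of the 3 motifs contains another. A match is a description of the letters and not of a bound site.

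Hmgb2 lies on chromosome 8 from 57511843 to 57515999 (mm10, plus strand) and encodes a DNA-bending chromatin protein that is abundant in dividing cells. It had 3.75, 4.70, 4.43, 4.43 and 4.22 CPM in zinc replicates 1 to 5. TPA libraries had 2.27, 2.67, 2.89, 2.62 and 2.16 CPM. Glutamate libraries had 2.62, 4.20, 3.41, 2.50 and 3.34 CPM, and control libraries 2.55, 2.63, 2.26, 2.43 and 2.40 CPM. All 5 zinc libraries lay above all TPA and all control libraries, but glutamate replicate 2 reached into the zinc range. The means were 4.30 ± 0.353 CPM with zinc, 2.52 ± 0.297 with TPA, 3.22 ± 0.688 with glutamate and 2.45 ± 0.141 in control (SD, n = 5 each). The fitted log2 fold change was 0.77 (SE 0.12) for zinc against TPA, 0.42 (SE 0.12) for zinc against glutamate and 0.81 (SE 0.12) for zinc against control. Without glutamate replicates 4 and 5 and zinc replicate 5, these were 0.78, 0.34 and 0.82.

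Nusap1, on chromosome 2 from 119618298 to 119650160 (plus strand), encodes a protein that bundles spindle microtubules around chromosomes. Its levels were 2.48, 2.58, 2.74, 2.42 and 3.20 CPM in zinc replicates 1 to 5, and 1.89, 1.83, 1.91, 1.87 and 1.94 CPM with TPA. With glutamate alone they were 2.30, 2.05, 2.22, 2.65 and 1.99 CPM, and in control 1.86, 2.07, 2.21, 1.96 and 1.91 CPM. The zinc libraries lay above all TPA and all control libraries and overlapped the glutamate libraries through glutamate replicate 4. The TPA libraries were close together, at 1.89 ± 0.0421 CPM, beside 2.69 ± 0.312 with zinc, 2.24 ± 0.259 with glutamate and 2.00 ± 0.141 in control. The log2 fold change was 0.50 (SE 0.10) for zinc against TPA, 0.26 (SE 0.10) for zinc against glutamate and 0.42 (SE 0.10) for zinc against control. Without the 3 farthest libraries the values were 0.44, 0.22 and 0.35.

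Fam111a, on chromosome 19 from 12573525 to 12589696 (plus strand), encodes a serine protease that acts at replication forks in human cells. It had 1.66, 1.81, 2.06, 1.61 and 1.85 CPM in zinc replicates 1 to 5, and 1.32, 1.26, 1.06, 1.33 and 1.32 CPM with TPA. Glutamate libraries had 1.43, 1.32, 1.49, 1.20 and 1.23 CPM, and control libraries 1.27, 1.40, 1.65, 1.53 and 1.68 CPM. Here zinc libraries were above all TPA and all glutamate libraries and overlapped control replicates 3 and 5. The log2 fold change was 0.52 (SE 0.12) for zinc against TPA, 0.43 (SE 0.12) for zinc against glutamate and 0.25 (SE 0.11) for zinc against control. Leaving out the 3 farthest libraries gave 0.51, 0.34 and 0.24. The control mean was thus close to TPA for Hmgb2 and Nusap1, at 2.45 ± 0.141 and 2.00 ± 0.141 CPM, but lay between zinc and TPA for Fam111a, at 1.51 ± 0.172 CPM beside 1.80 ± 0.174 with zinc and 1.26 ± 0.115 with TPA.

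Groups did not overlap, with zinc higher, for 3 of the 3 picked genes against TPA (1.14% of all tested genes), 1 against glutamate (0.368%) and 2 against control (1.31%). These counts follow from the choice of the genes and are given as a description.

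**Figure D2:**
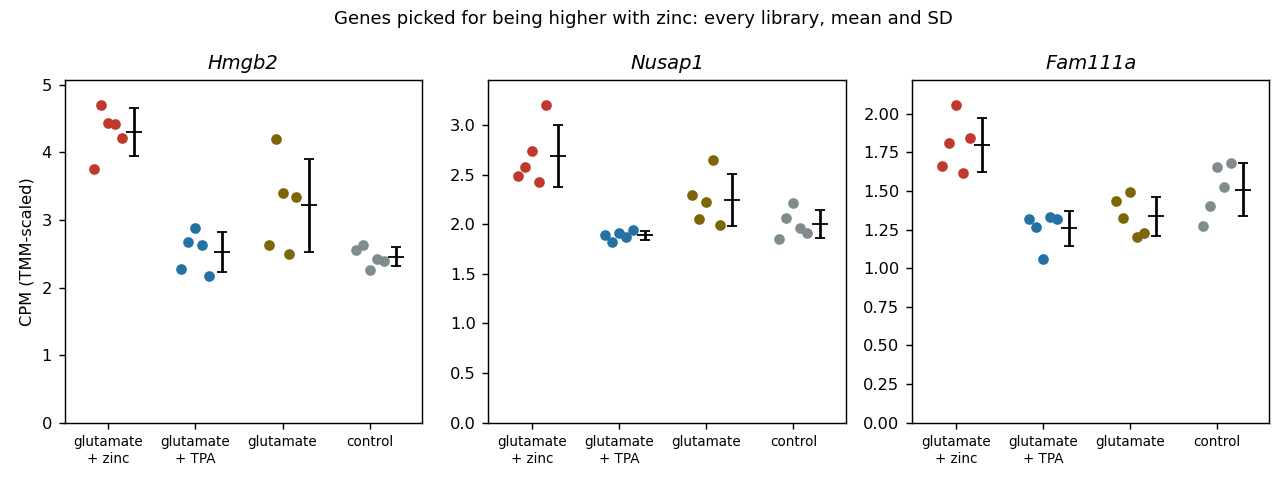
CPM of Hmgb2, Nusap1 and Fam111a in every library of the 4 groups, with the mean and SD to the right of the points. Zinc libraries are above all TPA libraries in each panel, and the Hmgb2 values of the glutamate group spread from 2.50 to 4.20 CPM.

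Part of the exons of Nusap1, 416 bases or 14.05% of its length, overlap Oip5, a centromere protein gene on the opposite strand. Oip5 had 3.08 ± 0.243 CPM with zinc, 3.09 ± 0.626 with TPA, 2.48 ± 0.255 with glutamate and 2.93 ± 0.282 in control. Its log2 fold change was -0.0051 (SE 0.12, edgeR quasi-likelihood adjusted p = 0.990) for zinc against TPA and 0.31 (SE 0.12, adjusted p = 0.741) for zinc against glutamate. Reads of the pair cannot be told apart if counting ignored strand, which the sources used here do not state. Of stretches of 50 bases in Hmgb2 transcripts, 18.67% also occur in transcripts of 9 other genes, 8 of them pseudogenes, and 0 occur in Hmgb1. They were 0.02% for Nusap1 and 0% for Fam111a, and reads from shared stretches can be lost or split in counting. The shares were 20.41% for Hmgb1, 25.39% for Hmgn2, 23.4% for Ccnb1, 19.1% for Pcna, 18.09% for Mcm7 and 16.92% for H2afz. Kif20a, a kinesin of the midzone, shares 85.66% of its exon length with the more abundant Cdc23 on the opposite strand, so its level is uncertain. Ccna2 shares 13.45% with Exosc9, which averaged 1680 counts beside 43.9 for Ccna2, and Cdc20 shares 8.74% with Elovl1. Both partners lie on the opposite strand, so these levels have the same limit.

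The zinc and TPA groups differ in added zinc, in the chelator and in the 1 min in chelator before the pulse. These cannot be told apart here. Of the other 40 cell cycle genes, 0 passed the threshold (edgeR quasi-likelihood test, Benjamini-Hochberg adjusted p of 0.05), beside 0.513% of all tested genes. At an unadjusted p under 0.05 there were 3 of the 40 and 2312 of the 14411 tested genes (16%). DESeq2 and limma-voom called 0 of the 40, and limma-voom with library weights called 1, Prc1. For 0 of the 40 were the groups of libraries apart (3.13% of all tested genes). Of the 40, 24 had positive log2 fold changes and the median was 0.04, beside 7253 of 14411 genes and a median of 0.0011 over all tested genes. Without zinc replicate 5 the median over the 40 was 7.3e-05.

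Prc1, a bundler of the microtubules between separating chromosomes, had the smallest p of the 40 in this comparison. It had 5.31, 5.31, 4.64, 5.09 and 4.52 CPM in zinc replicates 1 to 5, and 4.55, 3.69, 4.07, 4.19 and 4.58 CPM with TPA. The ranges overlapped, since TPA replicates 1 and 5 were above zinc replicate 5. The log2 fold change was 0.24 (SE 0.08, edgeR adjusted p = 0.163). Hmgb1 followed at 56.2 ± 5.02 CPM with zinc and 51.8 ± 2.07 with TPA (log2 fold change 0.12, SE 0.05, edgeR adjusted p = 0.275), and at 0.07 without zinc replicate 5, its highest library. Mcm4, a subunit of the replicative helicase, had 11.0 ± 0.466 CPM with zinc and 10.1 ± 0.763 with TPA (0.13, SE 0.06, edgeR adjusted p = 0.285), and 0.08 without TPA replicate 1.

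By role, all 4 chromatin genes and 8 of the 9 spindle, kinetochore and midzone genes had positive values for zinc against TPA, each count with its picked gene. The 8 spindle genes other than Nusap1 summed to 25.5 to 27.9 CPM in zinc libraries and 23.3 to 24.8 CPM in TPA libraries, which did not overlap. In deposited TPM the sums did overlap, at 19.3 to 21.9 TPM with zinc and 18.2 to 19.5 TPM with TPA. The CPM sums averaged 24.9 ± 0.650 with glutamate and 24.1 ± 1.17 in control, and no test was made of these sums. They hold Kif20a, whose level is uncertain, and how often sums of other genes are apart was not computed. The members of that group ran from -0.06 (SE 0.22) for Kif20a to 0.24 for Prc1, with Tpx2, an activator of Aurora kinase on the spindle, at 0.17 (SE 0.08). The CPM sums of the other roles overlapped between zinc and TPA. Replication genes other than Fam111a summed to 115 to 124 CPM with zinc and 113 to 121 CPM with TPA, and mitotic kinase, checkpoint and ubiquitin ligase genes to 7.58 to 8.73 and 7.28 to 8.43 CPM. Chromatin genes other than Hmgb2 summed to 166 to 200 CPM with zinc and 157 to 171 CPM with TPA. Cyclin and kinase genes summed to 162 to 215 and 167 to 190 CPM, and chromosome structure genes to 26.3 to 35.8 and 26.1 to 31.2 CPM. The lowest values were of scarce genes. Ccnb2, a mitotic cyclin, had 0.370 to 0.613 CPM with zinc and 0.412 to 0.984 with TPA (log2 fold change -0.44, SE 0.23), and Bub1, a spindle checkpoint kinase, had -0.34 (SE 0.23). Top2a, at 3.12 to 3.72 CPM with zinc and 3.46 to 4.14 with TPA, had -0.17 (SE 0.11), and Mki67 had -0.09 (SE 0.20), neither past the threshold.

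**Figure D3:**
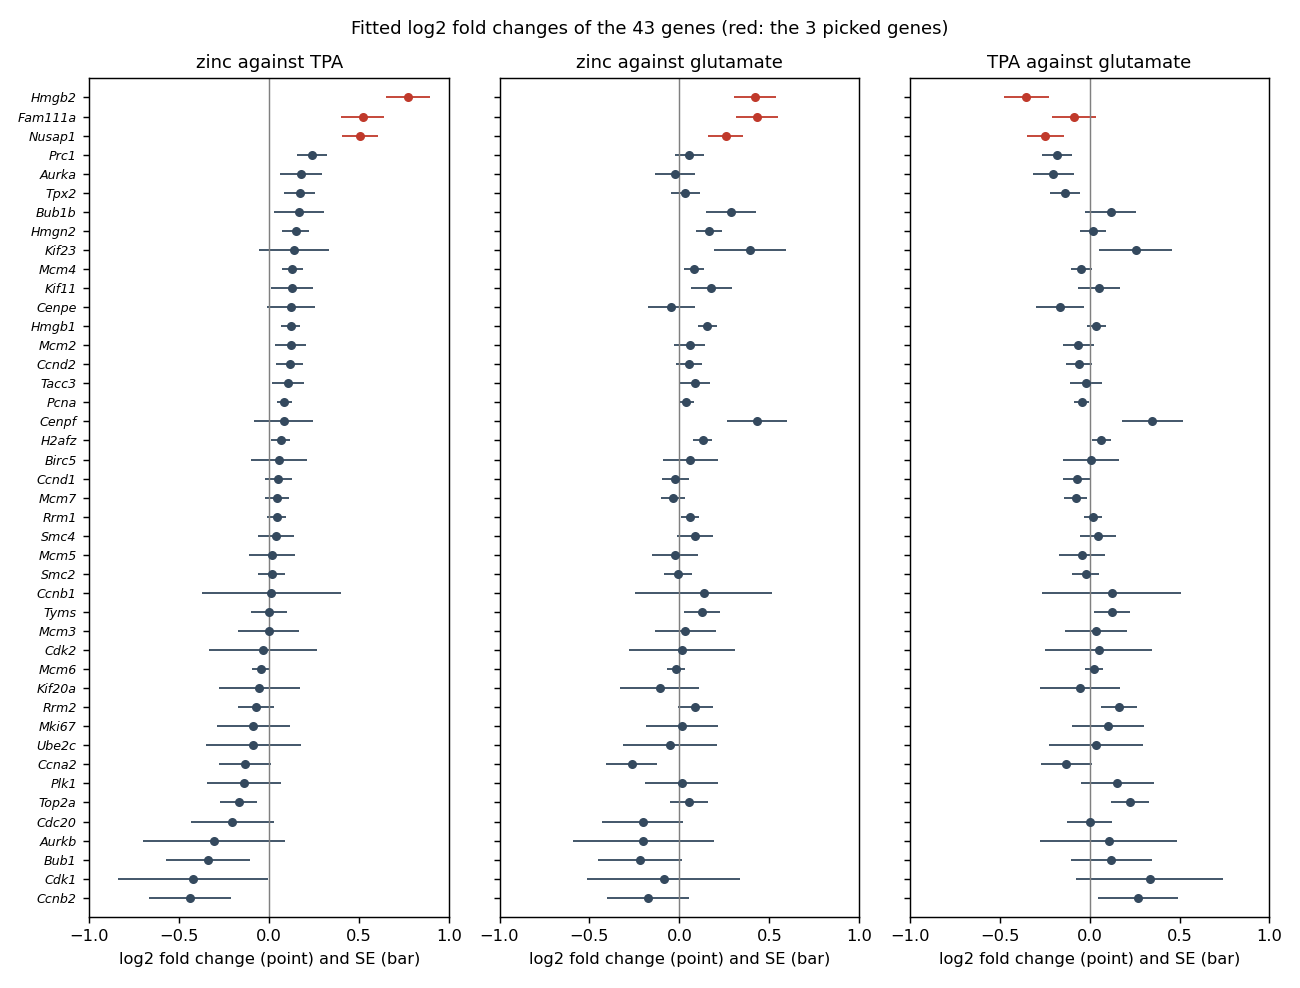
Fitted log2 fold changes (points) and their SE (bars) of the 43 genes for zinc against TPA, zinc against glutamate and TPA against glutamate, in the order of the first. The picked genes, in red, lie at 0.50 to 0.77 in the first panel, and the highest of the others is Prc1 at 0.24.

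Zinc against glutamate asks what added zinc changes in the same pulse. Of the other 40 genes 0 passed the edgeR threshold, beside 0% of all tested genes, and for 0 of the 40 were the libraries apart (0.701% of tested genes). At an unadjusted p under 0.05 there were 4 of the 40 and 862 of all genes (5.98%). DESeq2 and limma-voom with and without weights called 0 of the 40. The 4 genes were Hmgb1, Hmgn2, H2afz and Cenpf. All 4 chromatin genes had positive values, a count that holds the picked gene Hmgb2. Hmgb1 had 53.0, 51.0, 56.5, 56.6 and 64.2 CPM in zinc replicates 1 to 5, and 49.4, 50.8, 47.6, 51.5 and 52.9 CPM with glutamate, which overlapped. Its log2 fold change was 0.16 (SE 0.05, edgeR adjusted p = 0.740), and 0.10 without zinc replicate 5. H2afz had 70.3, 66.5, 70.2, 70.7 and 77.5 CPM with zinc, and 63.5, 64.3, 56.3, 70.5 and 69.7 CPM with glutamate, where replicate 3 was low. Its log2 fold change was 0.13 (SE 0.05, edgeR adjusted p = 0.753), and 0.08 without that replicate.

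Cenpf, a large kinetochore protein, had 1.69, 2.12, 2.03, 1.75 and 2.34 CPM with zinc, and 1.73, 1.40, 1.49, 0.950 and 1.80 CPM with glutamate. Its log2 fold change was 0.43 (SE 0.17, edgeR adjusted p = 0.753), and 0.30 without glutamate replicate 4, its lowest library. Hmgn2 had 50.4 ± 5.37 CPM with zinc and 44.9 ± 5.35 with glutamate (0.17, SE 0.07, edgeR adjusted p = 0.785). Over the 40 genes 25 were positive with a median of 0.04, beside 7254 of 14411 and 0.00065 over all tested genes. Without zinc replicate 5 the median over the 40 was 0.0061. Of the cyclin and kinase genes 3 of 7 were positive, with Ccna2, the S phase cyclin, at -0.27 (SE 0.14). Mki67 and Top2a had 0.01 (SE 0.20) and 0.06 (SE 0.11).

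Zinc against control spans both the glutamate and the zinc. Again 0 of the other 40 genes passed (edgeR; 0.0416% of all tested genes), 0 of the 40 had libraries that were apart (2.66%), and 2 of the 40 had an unadjusted p under 0.05, beside 1593 of all genes (11.1%). DESeq2 and limma-voom with and without weights called 0 of the 40. Hmgn2 came first, at 43.1, 48.6, 50.7, 51.9 and 57.9 CPM in zinc replicates 1 to 5, and 39.6, 44.7, 47.9, 46.6 and 42.4 CPM in control. Zinc replicate 1 lay within the control range, and the log2 fold change was 0.19 (SE 0.07, edgeR adjusted p = 0.369). Hmgb1 had 56.2 ± 5.02 CPM with zinc and 51.8 ± 3.09 in control (0.12, SE 0.05, edgeR adjusted p = 0.427), and 0.07 without zinc replicate 5. Prc1 had 4.98 ± 0.373 CPM with zinc and 4.45 ± 0.379 in control (0.16, SE 0.08, edgeR adjusted p = 0.477). Of the 40 genes 21 were positive, beside 7304 of 14411 tested genes. All 9 spindle genes were positive, with Nusap1 the highest and the other 8 at 0.08 to 0.20. All 4 chromosome structure genes, Top2a, Mki67, Smc2 and Smc4, were negative at -0.10 to -0.01. In the other roles 4 of 4 chromatin, 6 of 11 replication, 4 of 8 mitotic kinase and 1 of 7 cyclin and kinase genes were positive. The spindle, chromatin and replication counts each hold a picked gene. Over the 40 genes the median was 0.0061, beside 0.0016 over all tested genes, and it was -0.03 without zinc replicate 4 and -0.02 without zinc replicate 5. The 3 zinc comparisons share the zinc libraries, and their values are not independent.

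**Figure D4:**
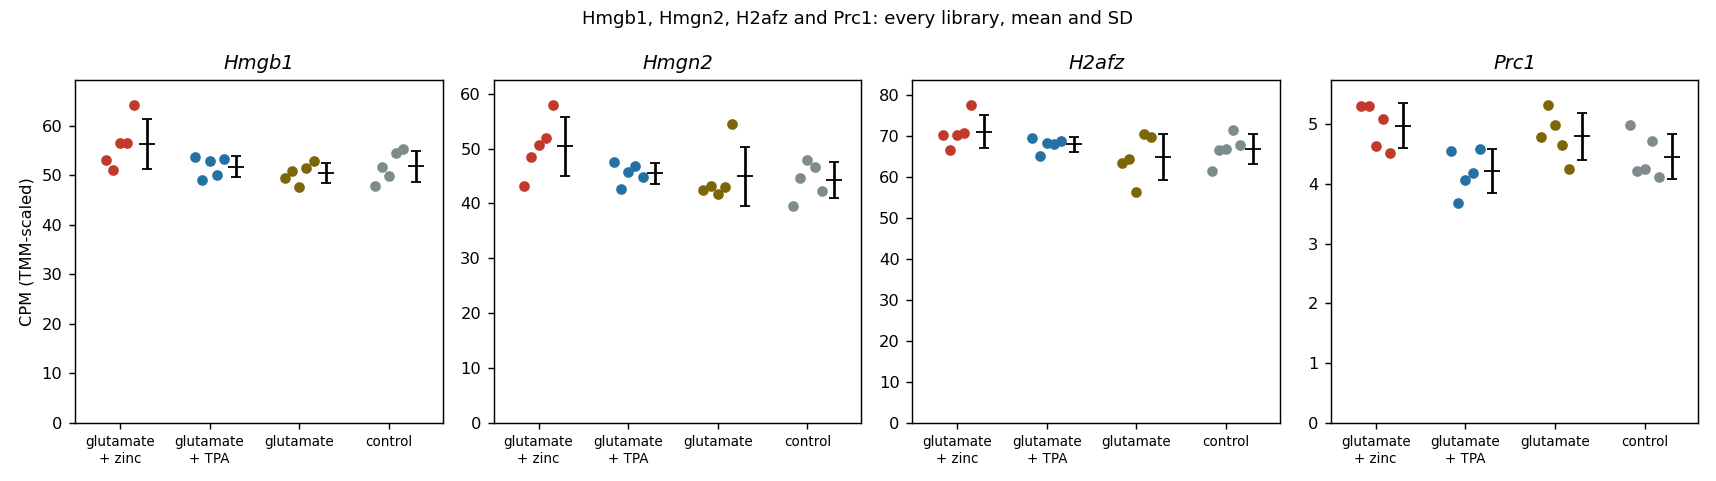
CPM of Hmgb1, Hmgn2, H2afz and Prc1 in every library of the 4 groups, with the mean and SD to the right of the points. The groups overlap in each panel, and zinc replicate 5 is the highest zinc library of Hmgb1 (64.2 CPM), Hmgn2 (57.9 CPM) and H2afz (77.5 CPM).

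TPA against glutamate asks what the chelator does. Less free zinc, the compound itself and the 1 min in it before the pulse cannot be told apart. Of the 40 genes other than the picked ones 0 passed (edgeR; 0% of all tested genes). At an unadjusted p under 0.05 there were 2 of the 40, beside 1030 of all genes (7.15%), and DESeq2 and limma-voom with and without weights called 0. Nusap1 was the only one of the 43 genes whose libraries did not overlap, with TPA lower. Over all tested genes 1.03% were apart and 0.527% were apart with TPA lower. Its log2 fold change was -0.25 (SE 0.10). Hmgb2 had -0.35 (SE 0.12), and -0.24 without glutamate replicate 2, its highest glutamate library. Fam111a had -0.09 (SE 0.12). All 5 TPA libraries were below the zinc libraries for these 3 genes, so the directions are not independent of the choice and are a description. Among the others, Prc1 had -0.18 (SE 0.08) and Top2a 0.23 (SE 0.10), both with an edgeR adjusted p of 0.697. Top2a had 3.46, 4.14, 4.10, 3.75 and 3.51 CPM in TPA replicates 1 to 5, and 2.81, 3.53, 2.96, 3.42 and 3.44 CPM with glutamate, which overlapped. Cenpf had 0.35 (SE 0.17, edgeR adjusted p = 0.699), and 0.22 without glutamate replicate 4.

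TPA against control sets the chelator with glutamate against medium alone. Of the 40 genes other than the picked ones 0 passed (edgeR; 0.0694% of all tested genes) and 0 had libraries that were apart (1.33%). An unadjusted p under 0.05 was found for 0 of the 40, beside 446 of all genes (3.09%). DESeq2 and limma-voom with and without weights called 0 of the 40. Fam111a had 1.26 ± 0.115 CPM with TPA and 1.51 ± 0.172 in control (log2 fold change -0.27, SE 0.12), and -0.21 without TPA replicate 3. Hmgb2 had 0.04 (SE 0.13) and Nusap1 -0.09 (SE 0.10). Aurka had -0.21 (SE 0.11), Mcm4 -0.10 (SE 0.06) and Mcm5, another helicase subunit, -0.16 (SE 0.13). Mcm4 had -0.06 without TPA replicate 1, and Mcm5 -0.08 without control replicate 3.

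Glutamate against control shows the pulse alone. Of the 40 genes other than the picked ones 0 passed (edgeR; 0.0208% of all tested genes) and 0 had libraries that were apart (0.985%). Only 1 of the 40, Tyms, had an unadjusted p under 0.05, beside 717 of all genes (4.98%). DESeq2 and limma-voom with and without weights called 0 of the 40. Hmgb2 had 3.22 ± 0.688 CPM after glutamate and 2.45 ± 0.141 in control (log2 fold change 0.39, SE 0.12). It was 0.28 without glutamate replicate 2. Tyms, the enzyme that makes thymidylate, had 1.87, 1.87, 2.14, 1.95 and 2.48 CPM after glutamate, and 2.33, 2.24, 2.62, 2.35 and 2.50 CPM in control. All but glutamate replicate 5 lay below the control libraries, and the log2 fold change was -0.22 (SE 0.10, edgeR adjusted p = 0.950). Cenpe, a kinetochore motor, had 0.20 (SE 0.13), Kif23, a midzone kinesin, -0.30 (SE 0.20) and Nusap1 0.16 (SE 0.10), or 0.09 without glutamate replicate 4. All 4 chromosome structure genes, 6 of the 7 cyclin and kinase genes and 8 of the 11 replication genes were negative. So were 3 of 9 spindle, 4 of 8 mitotic kinase and 2 of 4 chromatin genes. That made 27 of the 43 negative, beside 7360 of 14411 tested genes. The median over the 43 was -0.04, beside -0.0020 over all tested genes.

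Other genes of the same machinery were read from lists of 37 replication genes, 40 mitosis genes, 20 E2F, RB and MuvB regulators, 8 CDK inhibitors, 16 other cyclins, CDKs and CDK regulators, and 13 other HMG and H2A variant genes. The low-count filter left 36, 39, 19, 7, 16 and 11 of them to test, in that order. In each of the 6 comparisons 0 tested genes of each list passed the edgeR threshold in either direction, beside the background shares given above. The closest were in zinc against TPA. Slbp, which binds the stem-loop of replication-dependent histone mRNAs, had 28.0 to 32.0 CPM with zinc and 25.6 to 28.4 with TPA (log2 fold change 0.19, SE 0.05, edgeR adjusted p = 0.0656). Kif18a, a kinesin that limits the length of kinetochore microtubules, had 5.52 ± 1.16 CPM with zinc and 3.99 ± 0.375 with TPA (0.48, SE 0.14, edgeR adjusted p = 0.098). Hmgn5, a nucleosome-binding protein related to Hmgn2, had 13.3 ± 1.39 and 10.3 ± 1.10 CPM (0.36, SE 0.10, edgeR adjusted p = 0.098). Against glutamate the zinc group had a log2 fold change of 0.36 (SE 0.10) for Hmgn5, 0.73 (SE 0.27) for E2f7, a repressor of E2F targets, and 0.55 (SE 0.21) for Nuf2, a kinetochore protein, at edgeR adjusted p of 0.631 for Hmgn5 and 0.741 for the others. Of the CDK inhibitors Cdkn1a was the most abundant at a mean of 162 TPM, and Cdkn1b had the smallest p of its list in each zinc comparison, at 103 ± 11.8 CPM with zinc, 91.5 ± 4.45 with TPA, 94.6 ± 8.20 with glutamate and 93.7 ± 4.26 in control. Its log2 fold change for zinc against TPA was 0.17 (SE 0.07, edgeR adjusted p = 0.201).

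Marker lists of other cell types gave 0 genes past the edgeR threshold in each of the 6 comparisons, among the genes that passed the low-count filter. The filter left 7 of 8 neuroblast and intermediate progenitor, 4 of 6 oligodendrocyte precursor, 4 of 7 microglia and 9 of 11 vascular genes, and all genes of the other lists. For zinc against TPA the radial glia and progenitor list had 4 of 9 genes positive with a median log2 fold change of -0.03, and summed to 522 to 639 TPM with zinc and 564 to 657 TPM with TPA. Astrocyte genes had 4 of 8 positive with a median of 0.0021, and summed to 232 to 268 and 228 to 271 TPM. Neuroblast and intermediate progenitor genes summed to 288 to 415 TPM with zinc and 307 to 406 TPM with TPA, and oligodendrocyte precursor genes to 6.57 to 11.1 and 7.76 to 11.0 TPM. Microglia genes summed to 3.78 to 6.10 TPM with zinc and 3.99 to 5.95 TPM with TPA, and vascular genes to a median of 18.5 TPM with zinc and 18.1 TPM with TPA. Sox10, Cx3cr1, P2ry12 and Tmem119 were at 0 in some libraries and averaged 0.0073, 0.076, 0.068 and 0.0375 TPM. None of the genes of these lists was at 0 in every library, and the part of these cells in the values of the cell cycle genes was not tested.

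Deviations of each library from its group mean ask whether the genes vary together once the groups are removed. Over the 20 libraries 6 pairs were compared by permutation within groups, and 0 passed after Benjamini-Hochberg adjustment. Hmgb2 and Nusap1 had r = -0.48 and rho = -0.39 (permutation p = 0.080 and 0.131, adjusted 0.240 and 0.363). Without glutamate replicates 2 and 4, the libraries farthest from the Hmgb2 median, r was -0.22. Top2a and Mki67 had r = 0.44 and rho = 0.50 (permutation p = 0.0615 and 0.0364, adjusted 0.240 and 0.218), and r = 0.51 without control replicates 1 and 4. The other 4 pairs had r of -0.14 for Hmgb2 and Fam111a, 0.22 for Nusap1 and Fam111a, 0.21 for Hmgb2 and Top2a, and 0.15 for Top2a and Nusap1, with adjusted permutation p of 0.570 to 0.578. Their rho was -0.24, 0.34, 0.13 and -0.07 in the same order, with adjusted permutation p of 0.520, 0.363, 0.693 and 0.779. Without the 2 libraries farthest from the median of the gene on the x axis, r was -0.35, 0.51, 0.23 and 0.09.

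**Figure D5:**
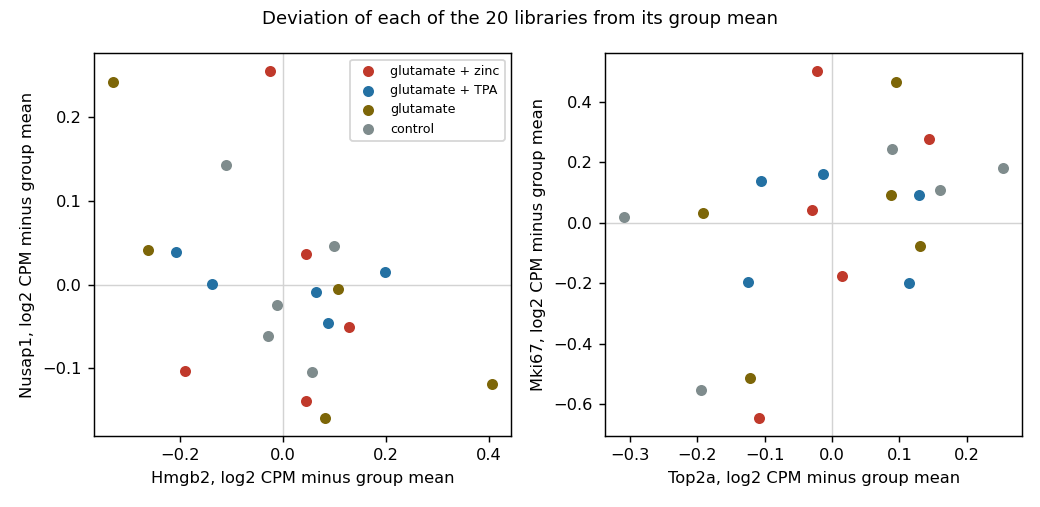
Deviation of each of the 20 libraries from its group mean in log2 CPM, for Nusap1 against Hmgb2 (left) and Mki67 against Top2a (right), coloured by group. The left panel has r = -0.48 and the right panel r = 0.44, and neither passed after adjustment.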

How the data were processed

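RNA-seq libraries of 20 cultures were analysed from tables the authors deposited. The authors' gene counts are whole numbers, and the deposited TPM values are counts scaled by gene length to a fixed sum per library. The build was mm10, and the submitters' processing notes name DESeq2 1.14.1, R 3.3.0, featureCounts, SAMtools 1.3.1, HISAT2 2.1.0 and Trimmomatic 0.36. Strand use in counting is not given in the sources. The deposited annotation gave positions and lengths. The authors' own comparison tables were not used here.

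Counts entered edgeR 4.0.16 (R 4.3.3) with its expression filter, TMM factors, 4 group means, robust quasi-likelihood fits and Benjamini-Hochberg adjustment over 14411 genes at 0.05. The robust option was added after the design was written. Log2 CPM used a prior count of 2, and permutation tests drew 100000 resamples. Overlaps and 50-base stretches were read from the deposited annotation and GENCODE M21 transcripts, and promoters from RefSeq. The fit was tested on simulated counts. The share of small changes that it recovered is not given here, so a count of 0 past the threshold does not show that the genes were unchanged.

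The genes and lists were chosen with earlier results of these data known. Named in each comparison are the 3 picked genes, others past the threshold, the 3 other genes with the smallest p, and 1 gene with the smallest p per pathway list. Other settings were DESeq2 1.42.0 and its size factors, library size alone, limma 3.58.1 voom with and without library weights, other filters, the 2 groups alone, a replicate block, each library left out, and the 3 farthest libraries left out.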

Additional observations from a re-analysis of the deposited data

Results flagged for a closer look

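Among 172 groups of 5 values, 14 held a library whose gap to the nearest other value exceeded 0.71 of the group's range, where chance gives about 1 in 20, or 8.6. In the zinc group these were Ccnb2 in replicate 1 (0.370 CPM, low), Cdc20, an activator of the anaphase ubiquitin ligase, in replicate 2 (0.281 CPM, low), Mcm7 in replicate 4 (14.3 CPM, high) and Smc2 in replicate 5 (11.2 CPM, high). In the TPA group they were Fam111a in replicate 3 (1.06 CPM, low), Tacc3 in replicate 3 (5.10 CPM, low), Ccnd1 in replicate 2 (18.4 CPM, low), and Cenpf (1.24 CPM, low) and Mcm2 (5.64 CPM, low) in replicate 1. In the glutamate group Hmgn2 (54.4 CPM) and Ccnd2 (190.5 CPM) were high in replicate 5. In control, replicate 3 was high for Mcm5 (3.33 CPM) and low for Mcm2 (5.93 CPM), and replicate 4 was high for Pcna (43.3 CPM).

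Leaving out TPA replicate 3 moved the log2 fold change of Fam111a for zinc against TPA to 0.46, against 0.52 with it.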

How the results depend on the processing

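The number of cell cycle genes past the threshold, counted over the 40 genes other than the picked 3, was 0 under the settings run in all 6 comparisons, with 1 exception. Limma-voom with library weights called 1 gene for zinc against TPA, Prc1 (log2 fold change 0.26, adjusted p = 0.0208). That fit called 3131 of 14411 genes (21.7%). With each of the 20 libraries left out in turn the count was 0 to 0. The count of all genes called for zinc against TPA was 74, and ranged from 5 without zinc replicate 3 to 899 without zinc replicate 4. It was also over 1.5 times lower without zinc replicates 1 (24) and 2 (14) and without TPA replicates 2 (16), 3 (39), 4 (31) and 5 (15), and without control replicates 3 (45) and 5 (44) and glutamate replicate 1 (49), and higher without zinc replicate 5 (230), TPA replicate 1 (127) and glutamate replicates 2 (120), 4 (147) and 5 (259). It was 481 with DESeq2, 1149 without the 3 farthest libraries, 41 without a filter, 37 with library size alone and 6 with the 2 groups alone. For zinc against control it was 6, and 3 to 100 with single libraries left out, with 100 without zinc replicate 4, 13 without glutamate replicate 4, 10 without TPA replicate 1, and 3 without zinc replicate 3 or control replicate 1. It was 61 with DESeq2, 1825 with library weights, 231 without the 3 farthest libraries, 39 with the block, and 4 with the 2 groups alone or library size alone. For zinc against glutamate it was 0, and 107 with weights, 1 with DESeq2, 1 without the 3 farthest and 0 to 3 with single libraries left out. For TPA against glutamate it was 0, and 484, 1, 551 and 0 to 2 under the same settings. For TPA against control it was 10, 12 without the 3 farthest and 6 to 11 with single libraries left out. For glutamate against control it was 3, and 59 with weights, 14 with DESeq2, 100 without the 3 farthest, 6 without the robust option (an alternative chosen after seeing the data), 5 with DESeq2 size factors or a minimum mean of 1 CPM, 2 with the 2 groups alone or the block, and 2 to 5 with single libraries left out. With the replicate number as a block, 0 of the genes counted passed in each comparison, and 422 of all genes did for zinc against TPA. Same-numbered libraries had a correlation of deviations over 0.1 in 11 of 30 pairs, with a range of -0.07 to 0.50 and a median of 0.056. Differently numbered libraries were not compared, so these values cannot decide whether the numbers pair the samples. The labels do not say that they do, and the main fit left the pairing out. The median log2 fold change over the genes other than the picked 3 was 0.04 for zinc against TPA, and -0.02 with library weights. Over all 43 genes, the picked ones included, it was 0.04 for zinc against TPA, and 0.09 over those with a minimum mean of 1 CPM. For zinc against control it was 0.02, and -0.03 with library weights. The log2 fold change of Hmgb2 for TPA against control was 0.04, and -0.02 without TPA replicate 3. The cause of these shifts was not tested. For the 23 genes that averaged under 100 counts, the counting error (the square root of a count) is over 10% of that mean.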
